A study of Mus musculus with 6 samples.

Results

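The proteasome is described here by 46 of the 54231 genes in the deposited table, those whose symbols run from Psma to Psmg followed by a number. The immunoproteasome genes Psmb8, Psmb9 and Psmb10 were left out by that rule. The 46 genes were 16 of the 20S core (8 alpha and 8 beta subunits), 20 of the 19S cap (6 ATPases and 14 others), 6 activators or inhibitors and 4 assembly chaperones. The 26S proteasome degrades proteins tagged with ubiquitin. Its 20S core is a barrel of stacked alpha and beta rings with the protein-cutting sites inside, and its 19S cap recognises the tag, removes it and threads the protein into the core. Mammalian cells keep the many subunits in balance largely through coordinated transcription, and germ cells of the mouse testis use a variant core subunit, Psma8.

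The samples were mouse cultures whose label is female germ line stem cells. A control group, titled DMSO, was compared at 8 h with a group treated with C89, which the labels give as a code name alone. Each group had 3 libraries. The labels used here name no strain, age or dose and do not say whether libraries of a group came from separate cultures. The p-values therefore rest on the spread between libraries, and that spread may be technical. The values are normalized counts, that is reads divided by 1 size factor per library, and log2 fold changes are C89 over DMSO on the log2(value + 1) scale.

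Depth ran from 17826569 to 21763459 recovered reads in the DMSO group and from 7772060 to 17938295 in the C89 group. C89 libraries 2 and 3 differed beyond sampling noise in 0.686% of genes, while the share was 25.7 to 48.7% for every other pair of the same group. Of 8 germ cell markers, Dazl, Dppa3 and Tfap2c had no read, and Pou5f1 and Ddx4 had 4 and 15 reads in all libraries together. The other 3 reached a mean of 5: Piwil2, Ifitm3 and Prdm1, with 1007, 213 and 69 reads. The germ cell list summed to 186 to 257 normalized counts in DMSO and 145 to 220 in C89 libraries. Most of that was Piwil2, with means of 164 in DMSO and 144 in C89. Of 10 mast cell markers 5 reached that mean, led by Kit, Gata2 and Cpa3. Ms4a2 had no read, and Fcer1a, Tpsb2 and Mcpt4 had 1, 2 and 1 in all libraries together. The mast cell list summed to 49440 to 59270 in DMSO and 84000 to 95210 in C89 libraries. Of 9 fibroblast markers 8 reached a mean of 5, with Lum at 0 and sums of 138 to 2416 and of 57.6 to 135. Of 5 macrophage markers 2 did, Adgre1 and Cd68, with list sums of 1799 to 2653 and of 3719 to 3985. Csf1r, Cd14 and Mrc1 had 4, 10 and 30 reads in all libraries together. Of 5 granulosa cell markers 1 reached a mean of 5, with Foxl2, Fshr and Cyp19a1 at 0 and sums of 7.17 to 9.34 and of 14.2 to 22.9. The sums of the mast cell, macrophage and granulosa cell lists were higher in every C89 library, that of the fibroblast list was lower, and those of the germ cell list overlapped. Their part in the results below was not tested. In bulk RNA, fewer cells of a type and less RNA per cell cannot be told apart.

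Of the 45 tested proteasome genes, 37 had a log2 fold change above 0 (26 with libraries scaled by total reads). On the reported scale, 9020 of all 18954 genes tested were above 0. In Psma5 (alpha subunit), Psmb3 (beta subunit), Psmd14, Psmd8 and Psmc2 (cap) and Psme2 (activator), among others, every C89 library lay above every DMSO library. This was so in 19.9% of all genes. At an adjusted p under 0.05 with limma, 15 of the 45 tested genes were called higher and 1 lower, while 29 were not called. Over all 18954 genes tested, 12.5% were called higher and 13.6% lower. Those genes go down to a mean of 1, while the lowest tested proteasome gene but Psmb11 was Psmg3, at a mean of 248.7. Shares among genes of similar level were not computed. At an unadjusted p under 0.05 there were 24 proteasome genes, 19 higher and 5 lower, and 37.3% of all genes in either direction. The median log2 fold change was 0.16 for the proteasome genes and -0.03 for all genes tested, and the values ran from -0.29 to 0.76 apart from Psmb11, which had almost no reads. All 3 C89 libraries lay above all 3 DMSO libraries in 18 proteasome genes (19.9% of all genes) and below them in 5 (21% of all genes). In the authors' deposited table, 15 proteasome genes were called higher and 1 lower, against 14.2% and 15% of the genes with an adjusted p there. These counts depend on the scale: with libraries scaled by total reads, 6 proteasome genes were called higher and 6 lower (7.97% and 21.6% of all genes). That scaling moved the median of all genes to -0.17 and that of the proteasome genes to 0.02, so that the gap between those medians was 0.19 in place of 0.20. The count of higher proteasome genes was 7 when C89 library 2 or 3 was left out, and 21 when DMSO library 1 was. Over all genes, in either direction, 3139 and 3218 were called without C89 library 2 and 3, and 4752 without DMSO library 1. That total was 4946 with all libraries, 4928 with edgeR and 4480 with DESeq2.

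**Figure D1:**
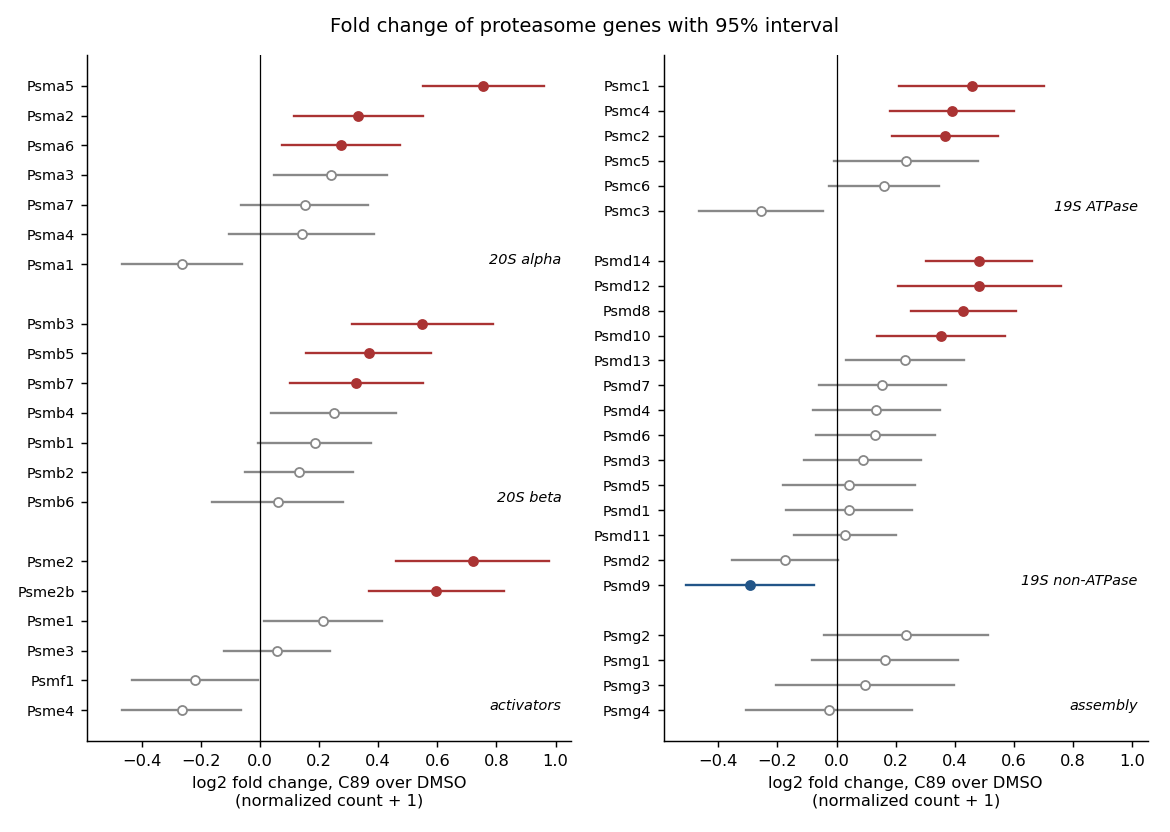
Log2 fold change (C89 over DMSO, x axis) of 44 proteasome genes with the 95% interval from limma, grouped by place in the complex. Filled red points are genes called higher, the filled blue point is Psmd9, called lower, and open grey points were not called. Psma5 lies farthest right, at 0.76, and none of the 4 assembly genes was called.

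Within each group the libraries were not alike. The median proteasome gene deviated from the DMSO mean by 0.11, -0.07 and -0.04 (log2) in DMSO libraries 1, 2 and 3, and by 0.09, 0.24 and 0.27 in the C89 libraries, so that the first C89 library lay below the first DMSO library. The first DMSO library had the highest DMSO value in 39 of 45 genes, and the first C89 library had the lowest C89 value in 34. As a share of all reads in genes, the 46 genes took 0.671%, 0.602% and 0.618% in DMSO and 0.608%, 0.668% and 0.674% in C89 libraries, and the groups overlapped. In the DMSO group the fibroblast markers were ordered otherwise, with sums of 1258, 2416 and 138 normalized counts in libraries 1, 2 and 3. In C89 libraries 1, 2 and 3 their sums were 57.6, 95.5 and 135, in the order of the proteasome medians there. A link between them was not tested.

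**Figure D2:**
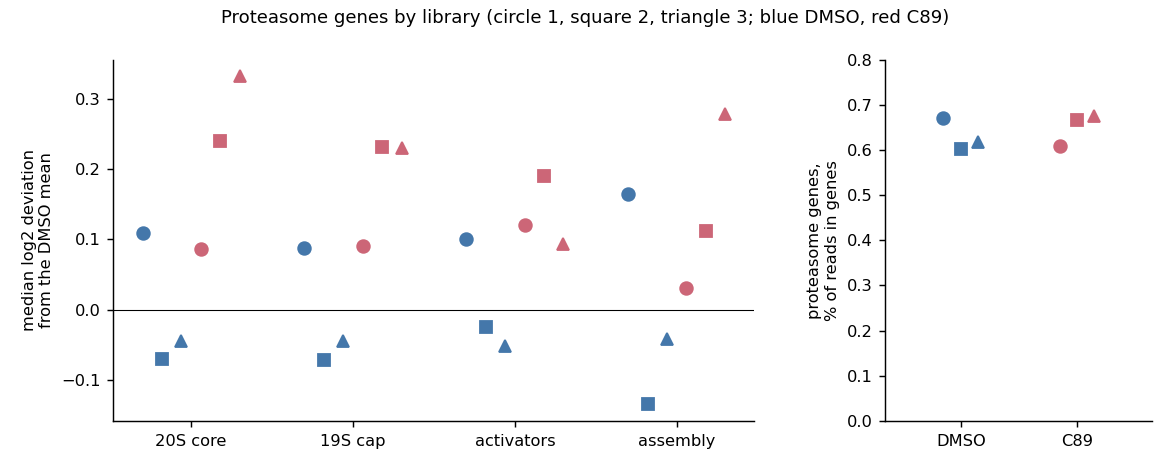
Left, the median log2 deviation from the DMSO mean over the tested genes of each group, 1 point per library; right, the percent of reads in genes that came from proteasome genes, from 0. The first DMSO library (blue circle) lies near or above the first C89 library (red circle) for the 20S core, the 19S cap and assembly, and the shares of reads overlap between the groups.

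The alpha subunits form the outer rings of the 20S core and gate its entry. Of 7 tested alpha genes, 3 were called higher and none lower with limma (12.5% and 13.6% of all genes). At an unadjusted p under 0.05, 4 were higher and 1 lower, Psma1 (37.3% of all genes in either direction). DESeq2 called Psma1 lower and edgeR did not. Psma5 (ENSMUSG00000068749) was at 2546, 2179 and 2099 normalized counts in DMSO and at 3572, 4060.4 and 3870.5 in C89 libraries. Every C89 library was far above every DMSO library. The means were 2275 ± 238 and 3834 ± 246 (SD, n = 3 each), a 1.69-fold rise (log2 fold change 0.76, SE 0.10, limma adjusted p = 1.95e-04). Psma2 was at 2037, 1709.9 and 1630.4 in DMSO and at 2078, 2268 and 2409 in C89 libraries, a log2 difference of 0.33 ± 0.10 (SE; limma adjusted p = 0.0286). Its first C89 library was only just above its first DMSO library. Psma6 was at 2215, 1945 and 2065 in DMSO and at 2283, 2526 and 2726 in C89 libraries, with a similar narrow gap between the first libraries (log2 fold change 0.27, SE 0.09, adjusted p = 0.0455). Leaving out the second or the third library of either group ended both calls (adjusted p = 0.0925 to 0.137 for Psma2 and 0.0828 to 0.206 for Psma6).

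Psma1, another alpha subunit gene, moved the other way without reaching the threshold. Its values were 3382, 3119 and 3270.3 in DMSO and 2395, 2841 and 2920.1 in C89 libraries. All C89 libraries were below all DMSO libraries, the lowest being the first C89 library. The log2 fold change was -0.27 (95% interval -0.47 to -0.06, adjusted p = 0.0534), and Psma1 was called lower with TMM scaling (adjusted p = 0.0482), with a filter at a mean of 10 (0.0445), with DESeq2 (0.037) and with scaling by total reads (0.00508). Psma3 had a log2 fold change of 0.24 (adjusted p = 0.0665; 0.0341 without the first DMSO library), Psma7 one of 0.15 (interval -0.06 to 0.36) and Psma4 one of 0.14 (interval -0.10 to 0.39). Psma8, the variant subunit of the testis, had no read in any library, where 3 reads would be the limit that a count of 0 allows.

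The beta subunits form the inner rings, and Psmb5, Psmb6 and Psmb7 carry the cutting sites. Psmb5, the target of most proteasome inhibitors, was at 1142, 1037 and 1091 normalized counts in DMSO and at 1245, 1488 and 1497 in C89 libraries. The groups did not overlap, and the first C89 library was the nearest to the DMSO group. Its mean rose from 1089.9 ± 52.5 to 1409.97 ± 143 (1.29-fold, log2 fold change 0.37, adjusted p = 0.0148). Psmb7 was at 1229, 1014 and 1021 in DMSO and at 1254, 1343 and 1487 in C89 libraries, again without overlap (log2 fold change 0.33, SE 0.10, adjusted p = 0.0358). Psmb6 was at 1671, 1549.8 and 1458 in DMSO and at 1416, 1687 and 1790.01 in C89 libraries, so the groups overlapped (log2 fold change 0.06, interval -0.16 to 0.28, adjusted p = 0.715; -0.09 with scaling by total reads). Psmb5 missed the threshold when DMSO library 2 (adjusted p = 0.061), C89 library 2 (0.0844) or C89 library 3 (0.084) was left out. For Psmb7 the same held (0.105 to 0.167), and leaving out the third DMSO library also ended its call (0.09996).

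Among the beta subunits without a cutting site, Psmb3 changed most. It was at 2135, 1825 and 1852 in DMSO and at 2399, 3105 and 3036 in C89 libraries. The first C89 library was nearest to the DMSO group, yet above all of it. The means were 1937 ± 172 and 2847 ± 389.5 (1.47-fold, log2 fold change 0.55, SE 0.11, adjusted p = 0.00316). Psmb4, Psmb1 and Psmb2 had log2 fold changes of 0.25, 0.18 and 0.13 and were not called (adjusted p = 0.0794, 0.148 and 0.287); Psmb4 was called higher without the first DMSO library (0.0408) or the first C89 library (0.0263). Psmb11, the thymus form, was not counted among the subunits without a cutting site. It had 7 reads in the third DMSO library, 1 read in the first C89 library and none elsewhere, so it passed the filter through 1 library.

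The 6 ATPases of the cap base unfold the substrate. Of these, 3 were called higher and none lower with limma (12.5% and 13.6% of all genes). At an unadjusted p under 0.05, 3 were higher and 1 lower, Psmc3 (37.3% of all genes in either direction). edgeR and DESeq2 each called 3 of the 6. Psmc2 was at 4487, 4088 and 4228 in DMSO and at 5209.9, 5686 and 5608 in C89 libraries. Every C89 library was above every DMSO library (log2 fold change 0.37, SE 0.08, adjusted p = 0.0061). Psmc4 was at 1979.9, 1782 and 1668 in DMSO and at 2138, 2439 and 2542 in C89 libraries, a log2 difference of 0.39 ± 0.10 (SE; limma adjusted p = 0.0105). Psmc1 was at 2265, 1689.99 and 1657 in DMSO and at 2446, 2571 and 2609 in C89 libraries, a log2 difference of 0.46 ± 0.11 (SE; limma adjusted p = 0.0105). In both genes the first DMSO library was the highest of its group and still below every C89 library. With the second C89 library left out neither was called (adjusted p = 0.0626 for Psmc4 and 0.0579 for Psmc1), nor with the third left out (0.0695 and 0.056). Psmc3 was at 3470.3, 2955 and 3472 in DMSO and at 2593, 2656 and 3036 in C89 libraries. The second DMSO library fell within the C89 range, and the gene was not called (log2 fold change -0.26, interval -0.46 to -0.05, adjusted p = 0.0694; 0.0377 without the second DMSO library). Psmc5 and Psmc6 had log2 fold changes of 0.24 and 0.16 (adjusted p = 0.146 and 0.199), and Psmc5 was called without the first DMSO library (0.0355).

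The scaffold and ubiquitin receptor genes of the base that fell within the symbol rule were not called with limma. Psmd1 had a log2 fold change of 0.04, Psmd2 one of -0.17 and the ubiquitin receptor gene Psmd4 one of 0.13. At an unadjusted p under 0.05 there were 0 of these 3 (37.3% of all genes), and edgeR and DESeq2 called 0. Adrm1, a ubiquitin receptor gene of the cap outside the symbol rule, was called higher (log2 fold change 0.43, limma adjusted p = 0.00516). Psmd4 was at 2173, 2088 and 1907 in DMSO and at 1973, 2431 and 2389 in C89 libraries, and the groups overlapped (interval -0.08 to 0.35; -0.01 with scaling by total reads).

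The lid holds the enzyme that cuts ubiquitin off the substrate, Psmd14. Of its 8 genes within the symbol rule, which leaves out the lid gene Sem1 (below), 3 were called higher and none lower with limma. Over all genes tested, 12.5% were called higher and 13.6% lower. All 8 had log2 fold changes above 0, from 0.03 to 0.48, as did 9020 of all 18954 genes tested. With scaling by total reads 5 of the 8 did. At an unadjusted p under 0.05 there were 4, all of them higher (37.3% of all genes in either direction). Psmd14 was at 2499, 2276 and 2260.1 in DMSO and at 3138, 3367 and 3328 in C89 libraries. The C89 libraries were close to each other and all above the DMSO group. Its mean rose from 2345 ± 134 to 3278 ± 122.5 (1.40-fold, log2 fold change 0.48, SE 0.08, adjusted p = 0.00128). Psmd8, whose yeast counterpart joins the lid last, was at 3770.3, 3654 and 3498 in DMSO and at 4666, 4916 and 5136 in C89 libraries. The groups were well apart (log2 fold change 0.43, SE 0.08, adjusted p = 0.00232). Psmd12 was at 1816, 1389 and 1224 in DMSO and at 1890.2, 2036 and 2189 in C89 libraries, with the first libraries close to each other (log2 fold change 0.48, SE 0.13, adjusted p = 0.0145). Its call ended when the second or the third library of either group was left out (adjusted p = 0.0501 to 0.0802). Psmd11, a lid subunit linked in worms and human stem cells to proteasome assembly, was at 2654, 2468 and 2593 in DMSO and at 2704, 2567 and 2595 in C89 libraries, with a log2 fold change of 0.03 (interval -0.14 to 0.20; -0.12 with scaling by total reads). Psmd13, Psmd7, Psmd6 and Psmd3 had log2 fold changes of 0.23, 0.16, 0.13 and 0.09 and were not called. Psmd13 (adjusted p = 0.0267) and Psmd7 (0.0298) were called higher without the first DMSO library.

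Psmd5, Psmd9 and Psmd10 carry cap names but encode chaperones that assemble the ATPase ring. They went different ways. Psmd10, the gene of gankyrin, was at 370.1, 386 and 369 in DMSO and at 486, 469 and 482 in C89 libraries. Each group was narrow, and the groups were apart (log2 fold change 0.35, SE 0.10, adjusted p = 0.0205). Psmd9 was at 599, 543 and 571 in DMSO and at 472, 439 and 485 in C89 libraries, all lower than in DMSO (log2 fold change -0.29, SE 0.10, adjusted p = 0.0466). Leaving out any 1 of the 6 libraries ended the Psmd9 call (adjusted p = 0.0711 to 0.162), and DESeq2 did not make it. In the authors' deposited table Psma1 was the 1 gene called lower and Psmd9 had an adjusted p of 0.0688. The Psmd10 call ended when the second or the third C89 library was left out (adjusted p = 0.0584 and 0.0743). Psmd5 had a log2 fold change of 0.04 (interval -0.18 to 0.27).

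**Figure D3:**
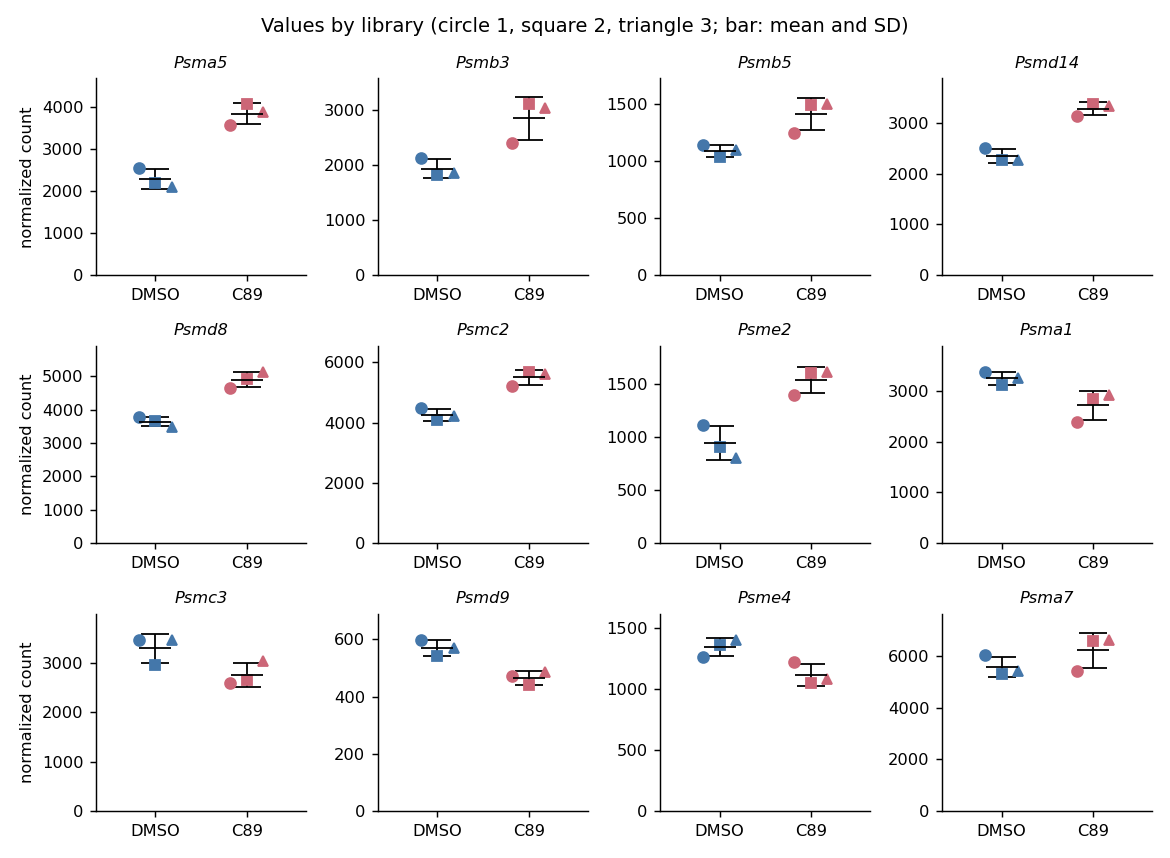
Normalized counts (y axis, from 0) of 12 proteasome genes in each library, with the mean and SD of each group of 3. Psma5, Psmb3, Psmb5, Psmd14, Psmd8, Psmc2 and Psme2 are higher in every C89 library, Psma1, Psmd9 and Psme4 are lower in every C89 library, and Psmc3 and Psma7 overlap.

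Activators dock on the core in place of the cap. Psme1 and Psme2 encode the interferon-inducible PA28 ring, Psme3 a nuclear ring, Psme4 the activator PA200 and Psmf1 a protein first described as an inhibitor. Of these 6 genes, Psme2 and its copy Psme2b were called higher and none lower with limma (12.5% and 13.6% of all genes). At an unadjusted p under 0.05, 3 were higher and 2 lower (37.3% of all genes in either direction). Psme2 was at 1116, 908 and 798 in DMSO and at 1398, 1603 and 1613 in C89 libraries. The lowest C89 library was above the highest DMSO library (1.64-fold, log2 fold change 0.72, SE 0.12, adjusted p = 0.00108). Psme2b was at 389, 357 and 336 in DMSO and at 517, 551 and 567 in C89 libraries, also without overlap (log2 fold change 0.60, SE 0.11, adjusted p = 0.00157). These copies share 44.5% of the 100-base windows of the Psme2 transcript, so their separate values are uncertain. Summed, they went from 1301 ± 188 to 2083 ± 146 normalized counts (1.60-fold). Psme1, the partner of Psme2, was at 1478 ± 126 and 1710.1 ± 94.5 (log2 fold change 0.21, interval 0.01 to 0.41, adjusted p = 0.11; 0.04 without the first DMSO library). Psme3 had a log2 fold change of 0.06 (interval -0.12 to 0.24).

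Psme4 was at 1259.7, 1360.1 and 1401 in DMSO and at 1218, 1047 and 1083 in C89 libraries. All C89 libraries were below the DMSO group, with the first C89 library close to the first DMSO library. Its log2 fold change of -0.27 missed the threshold (adjusted p = 0.0519); edgeR called it lower (0.0469), as did limma with TMM scaling (0.0409), a filter at a mean of 10 (0.0411) or a pseudocount of 5 (0.04998). It was also called with the first DMSO (0.0387) or the first C89 library (0.0285) left out. Psmf1 was at 646, 696 and 716 in DMSO and at 627, 549 and 591 in C89 libraries, again all below the DMSO group but not called (log2 fold change -0.22, adjusted p = 0.123). With scaling by total reads, both were called lower (log2 fold change -0.41 for Psme4 and -0.37 for Psmf1), as were Psma1, Psmc3, Psmd2 and Psmd9.

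Psmg1 to Psmg4 encode chaperones that build the alpha ring. With limma 0 of the 4 were called, 0 had an unadjusted p under 0.05 (37.3% of all genes), and edgeR and DESeq2 called 0. Psmg1 was at 1012, 833 and 966 in DMSO and at 897, 1129.9 and 1131 in C89 libraries. Psmg2 was at 425, 309.95 and 369 in DMSO and at 404, 433 and 454 in C89 libraries, and the groups of both genes overlapped. Psmg2 had the largest log2 fold change of the 4, 0.23 (interval -0.04 to 0.51). Psmg3 was at 275, 222 and 224 in DMSO and at 244, 236 and 290.5 in C89 libraries (log2 fold change 0.10, interval -0.20 to 0.40; -0.05 with scaling by total reads), and Psmg4 had a log2 fold change of -0.03 (interval -0.31 to 0.26). The intervals of Psmg1 to Psmg4 include both 0 and the median of all proteasome genes.

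Of the 15 higher calls, 7 held with each library left out in turn, those of Psma5, Psmb3, Psmc2, Psmd14, Psmd8, Psme2 and Psme2b. The same 7 were called when C89 libraries 2 and 3 were summed, and all of them except Psmc2 (adjusted p = 0.0591) with scaling by total reads. The other 8 missed the threshold when either the second or the third C89 library was left out.

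**Figure D4:**
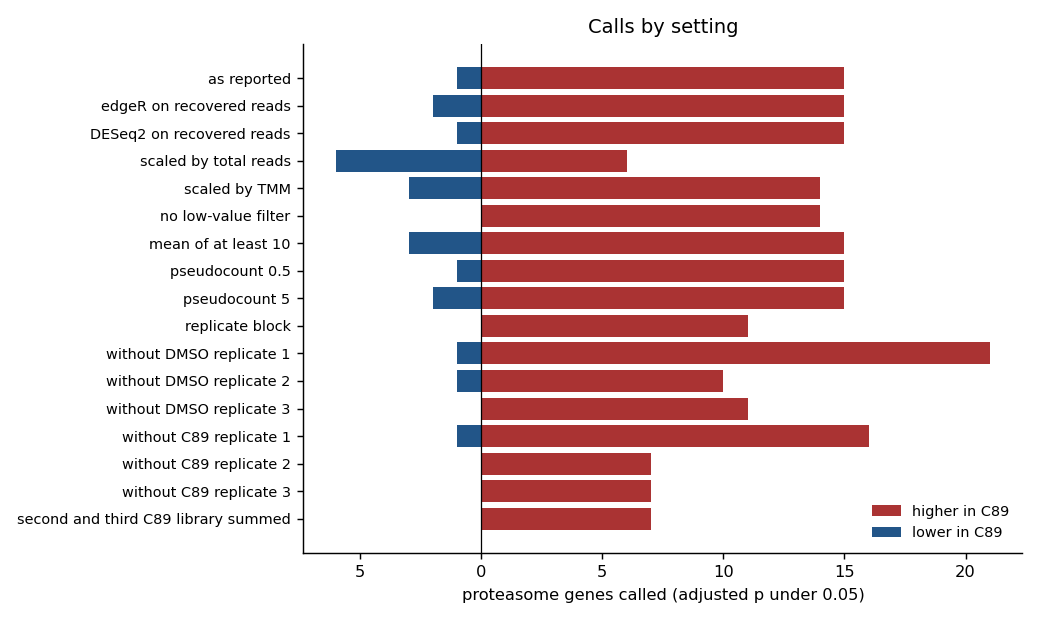
Number of proteasome genes called higher (red, right) and lower (blue, left) at an adjusted p under 0.05 in each setting. Higher calls run from 6 with scaling by total reads to 21 without the first DMSO library, and lower calls from 0 to 6.

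Levels were compared between genes per kilobase of the principal transcript. Psma7, an alpha subunit gene, stood highest in both groups, at 6115 ± 432.5 normalized counts per kilobase in DMSO and 6805 ± 745 in C89. Next in DMSO were Psma1 (2712 ± 109.9), Psmb3 (2529 ± 225) and Psmc2 (2391 ± 114), and the library ranges of neighbours in this order overlapped. In C89 the order below Psma7 was Psmb3 (3716 ± 509), Psmd8 (3186 ± 153), Psma5 (3095 ± 199) and Psmc2 (3082 ± 143), again with overlapping ranges between neighbours. Psma5 stood at rank 12 in DMSO, at 1836 ± 192, and at rank 4 in C89. The median level per kilobase in DMSO was 1895 for the 14 core genes apart from Psma8 and Psmb11. It was 1197 for the 20 cap genes and 457 for the assembly genes Psmg1 to Psmg4. The cap genes include the chaperone genes Psmd5, Psmd9 and Psmd10, at 404, 220 and 262 in DMSO. Among the 44 genes without Psma8 and Psmb11, which had few reads or none, Psmf1 was lowest in DMSO, at 180.0 ± 9.47. The length used may not be that of the isoform in these cultures, as for Psma2 and Psma3, whose principal transcripts are 2911 and 2846 bases long.

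**Figure D5:**
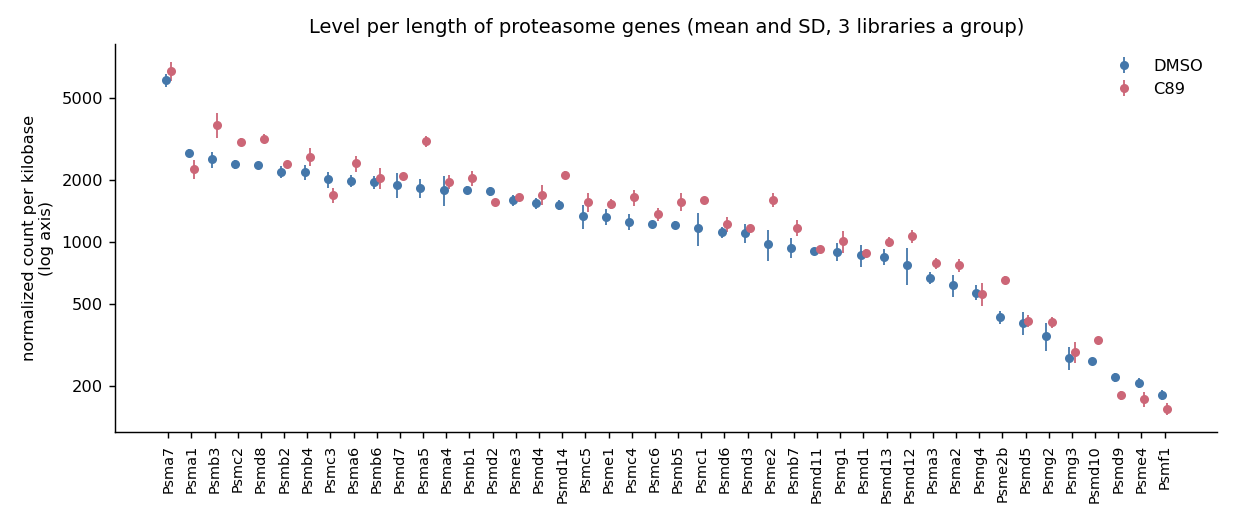
Normalized counts per kilobase of principal transcript (y axis, log scale) for 44 proteasome genes in order of their DMSO level, as mean and SD of 3 libraries a group. Psma7 stands above the rest, and Psma5, Psmb3 and Psme2 show the wide gaps between the groups.

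Some of these genes share sequence or position with others, and how the authors counted such reads is not stated. Psma5 shares 27.5% of its 100-base windows with other genes, mainly Gm8394, which was at 186 normalized counts in DMSO and 302 in C89. Psmb5 shares 24.9% with others, mainly Gm3375, which was nearly as high as Psmb5 itself, at 1015 and 1319. Psma3 shares 20.6% with Gm13835 (907 and 1070.0), and Psmb3 shares 17.99% with other genes. Exons of Psmb7 overlap those of Nek6 on the other strand by 253 bases, and Nek6 was at 1396 and 1761, so reads there may have been given to either gene. Exons of Psmc3 overlap Slc39a13 by 147 bases and those of Psmd13 overlap Sirt3 by 329 bases, both on the other strand; Slc39a13 was at 300.0 and 246 and Sirt3 at 737 and 543.

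The promoters of 38 of the 46 genes were found in RefSeq (GRCm38.p6), as 41 windows of 300 bases around the start of transcription. The motifs, searched on both strands, were TGACNNNGC, the antioxidant response element bound by NFE2L1 and NFE2L2, the factors known to raise proteasome genes under stress; CCAAT, the box bound by NF-Y; and GAANNTTC, a heat shock element. TGACNNNGC was in 14.6% of the proteasome windows and in 12.4% of all 32851 windows. CCAAT was in 31.7% and 37.4%, and GAANNTTC in 4.88% and 7.86%. The 6 genes with TGACNNNGC were Psmb5 and Psmd12, called higher, Psmd9, called lower, and Psmb6, Psmc6 and Psme4, not called. Of the 14 higher genes with a window, 7 had CCAAT, as did 6 of the 23 that were not called and not the lower one. These counts are by gene, in any window, while the shares above are by window. Psma6 and Psmc2, both called higher, have 2 windows each, with CCAAT in only the upstream one. In none of these windows did TGACNNNGC occur with CCAAT, so these motifs did not overlap. The windows below are shown 5′ to 3′ on the gene's strand, with TGACNNNGC and CCAAT matches of either strand in capitals. Psma5, Psmb3 and Psmd14 are shown as examples of genes whose calls held with each library left out in turn. Psmb5 and Psme4 are shown because they hold TGACNNNGC and had fold changes of opposite sign.
Psma5 (chr3:108256676-108256975, plus strand): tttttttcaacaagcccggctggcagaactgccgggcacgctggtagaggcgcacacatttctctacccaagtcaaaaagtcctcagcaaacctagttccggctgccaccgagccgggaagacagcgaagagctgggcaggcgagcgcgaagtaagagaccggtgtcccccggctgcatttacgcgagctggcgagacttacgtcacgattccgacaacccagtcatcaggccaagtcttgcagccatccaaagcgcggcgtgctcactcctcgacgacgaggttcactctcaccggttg
Psmb3 (chr11:97703184-97703483, plus strand): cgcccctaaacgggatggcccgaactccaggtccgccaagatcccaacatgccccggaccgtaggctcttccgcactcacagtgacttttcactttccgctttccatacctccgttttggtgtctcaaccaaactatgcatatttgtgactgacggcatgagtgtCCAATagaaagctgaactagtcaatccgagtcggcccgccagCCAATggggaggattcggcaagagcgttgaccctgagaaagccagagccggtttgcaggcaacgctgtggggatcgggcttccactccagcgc
Psmd14 (chr2:61711444-61711743, plus strand): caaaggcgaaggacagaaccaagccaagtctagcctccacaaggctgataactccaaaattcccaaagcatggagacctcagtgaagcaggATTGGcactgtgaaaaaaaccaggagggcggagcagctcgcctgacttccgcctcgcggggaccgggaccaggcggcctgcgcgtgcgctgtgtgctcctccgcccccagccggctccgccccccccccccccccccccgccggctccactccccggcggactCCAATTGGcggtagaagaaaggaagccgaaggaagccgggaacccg
Psmb5 (chr14:54617946-54618245, minus strand): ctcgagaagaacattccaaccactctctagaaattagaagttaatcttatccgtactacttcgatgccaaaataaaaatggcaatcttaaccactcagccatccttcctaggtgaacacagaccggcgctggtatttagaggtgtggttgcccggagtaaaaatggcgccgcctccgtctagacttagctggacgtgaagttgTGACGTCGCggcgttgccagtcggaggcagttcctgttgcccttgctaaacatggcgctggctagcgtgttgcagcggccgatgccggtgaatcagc
Psme4 (chr11:30771525-30771824, plus strand): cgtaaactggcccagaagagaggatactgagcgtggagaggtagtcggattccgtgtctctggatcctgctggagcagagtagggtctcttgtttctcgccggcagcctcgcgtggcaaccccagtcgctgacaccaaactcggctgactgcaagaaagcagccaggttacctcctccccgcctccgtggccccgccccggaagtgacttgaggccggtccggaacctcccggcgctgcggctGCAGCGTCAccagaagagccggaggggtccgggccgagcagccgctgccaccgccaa
The Psma5 window has none of the 3 motifs in the form searched. Nor do the windows of Psmd8, Psme2 and Psme2b, whose calls also held with each library left out. Psmc2, the remaining gene whose call held, has CCAAT in its upstream window. The part of these motifs in the changes was not tested. The Psmb3 window has CCAAT 85 and 43 bases before the start, and in Psmd14 it occurs 159 bases before the start and as a pair on opposite strands just after it. TGACNNNGC lies 47 bases before the start in Psmb5 and 7 bases before it in Psme4.

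Other genes of the pathway were taken from a list of 37, with a median log2 fold change of 0.09. Of these, 9 were called higher and 2 lower with limma (12.5% and 13.6% of all genes). Of 11 further parts and bound factors of the 26S complex, 5 were higher and none lower with limma, and edgeR called the same 5. DESeq2 called 4 of them, missed Zfand2a (adjusted p = 0.0591) and called Ube3c higher (0.049). Ube3c, a ubiquitin ligase gene, and Txnl1, a cap-bound thioredoxin gene, were not called with limma (adjusted p = 0.0566 and 0.0665). Both were called higher with DMSO library 1 left out (0.0179 and 0.0166), and Ube3c also with a filter at a mean of 10 (0.048). Adrm1, a ubiquitin receptor of the cap, rose from 2108 ± 209 to 2843 ± 186 (log2 fold change 0.43, adjusted p = 0.00516) and Sem1, a small lid subunit, from 1249.8 ± 167 to 1802 ± 225 (log2 fold change 0.53, adjusted p = 0.00509). Usp14, a deubiquitinase on the cap, rose from 10390.6 ± 1069 to 13261 ± 612 (adjusted p = 0.0162), but was not called with the second or the third C89 library left out (0.0829 and 0.0911). Pomp, which matures the core, was at 2114, 1816 and 1697 in DMSO and at 2258, 2451 and 2424 in C89 libraries (adjusted p = 0.0182). The groups did not overlap, but Pomp missed the threshold with the second or the third library of either group left out (0.0593 to 0.09). Zfand2a was called at an adjusted p of 0.0443, and leaving out any 1 library but the second DMSO library ended the call (0.0678 to 0.149). With scaling by total reads Usp14, Pomp and Zfand2a missed the threshold (0.111, 0.13 and 0.274).

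Of 10 genes for the transcription factors of the proteasome and for their processing or partners, 3 were higher and 1 lower (12.5% and 13.6% of all genes). Nfe2l1, the factor that restores proteasome genes after inhibition, was at 8058, 10194 and 10932 in DMSO and at 7933, 8541 and 8136 in C89 libraries. The first DMSO library lay within the C89 range (log2 fold change -0.23, SE 0.11, adjusted p = 0.139). Nfe2l1 was called lower with that library left out (log2 fold change -0.36, adjusted p = 0.0106) and with scaling by total reads (0.0226). The partner gene Mafk rose from 954 ± 68.8 to 1352 ± 87.6 (adjusted p = 0.00212). Mafg rose from 1905 ± 37.2 to 2342 ± 55.4 (0.0148; 0.0642 and 0.0508 with C89 library 2 or 3 left out, and 0.183 with scaling by total reads). Nfe2l3 rose from 1.73 to 10.9 normalized counts, at few reads. Ngly1, the enzyme that strips sugars from NFE2L1, was lower in C89, at 493 ± 44.3 against 657 ± 67.1 (adjusted p = 0.0165). Its call ended with DMSO library 3 (0.0593), C89 library 1 (0.0579) or C89 library 2 (0.0699) left out. Of 10 shuttle and p97 genes, 1 was called higher and 1 lower with limma, near the shares of all genes. Rad23b rose (log2 fold change 0.38, adjusted p = 0.00364) and Ubqln2 fell, from 961 ± 73.5 to 644 ± 27.8 (adjusted p = 0.00108). The unfoldase gene Vcp had a log2 fold change of -0.04 (adjusted p = 0.764). Ubxn1, a p97 cofactor gene, had a log2 fold change of -0.27 (adjusted p = 0.0963; 0.0135 with scaling by total reads). Of 6 ubiquitin and E1 genes 0 were called with limma, edgeR or DESeq2, and 0 had an unadjusted p under 0.05 (37.3% of all genes). Rps27a, which also encodes a ribosomal protein, had a log2 fold change of 0.26 (adjusted p = 0.31), and it was called higher with the first DMSO library left out (log2 fold change 0.52, adjusted p = 0.0119).

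Of the immunoproteasome genes left out by the rule, Psmb8 rose from 1141 ± 165 to 1873 ± 238 (log2 fold change 0.72, adjusted p = 0.00118). Psmb9 and Psmb10 had log2 fold changes of 0.08 and -0.03 and were not called.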

How the data were processed

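Total RNA was extracted with Trizol and sequenced as paired-end mRNA libraries, per the labels' protocols, which name library kits of more than 1 maker. The submitters' processing notes name HISAT2 and DESeq2. The sources used here do not give the genome build, the annotation, or how reads of overlapping or near-identical genes were counted. The authors deposited a signal per gene and library, a read count divided by 1 size factor per library: of 119020 values above 0, 100% came out as whole reads within 0.01 read. Dividing by the step of each library recovered the reads. The deposited table also holds the authors' own log2 fold changes and p-values, per the file headers. A gene with a text cell was left out, leaving 54231, and 6 unnamed columns were not used.

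The test was limma-trend (limma 3.58.1, R 4.3.3) on log2(value + 1), fitted to all 6 libraries with group as its term. Genes needed a mean of 1 or more, and p-values were adjusted by the Benjamini-Hochberg method over all genes tested. Alternatives were edgeR 4.0.16 and DESeq2 1.42.0 on the recovered reads, other scalings, filters and pseudocounts, a replicate block, each library left out, and C89 libraries 2 and 3 summed. The procedure was tested on simulated data. Floors of 3 reads cover counting error only.

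Full values went to the 3 genes of lowest p among the alpha, beta, ATPase, other cap, activator and assembly genes, to called genes against the majority, and to Psmb5, Psmb6, Psmb7, Psmd14, Psmd4, Psmd11, Psme4 and Psmf1. In related lists they went to the 3 genes of lowest p, Nfe2l1 and Pomp, apart from genes that are not reported here. Psma1, Psmc3, Psmd10, Zfand2a, Ube3c, Txnl1, Ngly1 and Vcp were added after their values were seen. Members, lists and markers were chosen with earlier results of these data known. Transcript lengths, shared 100-base windows and exon overlaps came from GENCODE M21 by Ensembl identifier, and promoters from RefSeq (GRCm38.p6) by symbol. Figures were drawn with matplotlib 3.10.9.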

Additional observations from a re-analysis of the deposited data

How the results depend on the processing

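Under the 16 alternatives, 384 values of 24 named proteasome genes were compared with those reported: 312 kept their direction and side of the threshold, 58 lost the call, 8 gained one and 6 changed sign without being called. For 8 of the 24 genes direction and call were kept in all 16. With scaling by total reads the log2 fold changes of Psmb6, Psmd11, Psmd4 and Psmg3 were -0.0886, -0.1202, -0.0137 and -0.0519. With 1 library left out, that of Psmb6 ran from -0.0106 to 0.1582 and that of Psmd11 from -0.001 to 0.0515. Scaling by total reads left 6 genes higher, 2 of the core and 2 of the cap, with 6 lower and a median log2 fold change of 0.0158. With C89 libraries 2 and 3 summed, 7 were higher, 2 of the core and 3 of the cap, none lower, and 3274 of all genes were called in place of 4946. Genes called lower numbered 2 with edgeR, 3 with TMM scaling, 3 with a filter at a mean of 10, 2 with a pseudocount of 5, and 0 without a filter. Leaving out 1 library gave 7 to 21 higher and 0 to 1 lower genes, 2 to 8 of the core, 3 to 10 of the cap, 2 to 3 activators, a median of 0.13 to 0.27, and 3139 to 4752 genes called in all. The cause of these shifts was not tested. Same-numbered libraries did not deviate together (correlations of -0.19, -0.18 and 0.02). Deviations were taken from group means, and C89 libraries 2 and 3 were nearly alike, so these correlations cannot decide whether the numbers pair libraries. With a replicate block 11 proteasome genes were higher, 3 of them of the core, and 0 lower, with 4089 of all genes called in either direction.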
